A study of Mus musculus with 21 samples.

Results

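The genes described here are 10 genes that anchor the podocyte to the glomerular basement membrane: *Itga3*, *Itgb1*, *Itgav*, *Itgb5*, *Cd151*, *Dag1*, *Ilk*, *Parva*, *Tln1* and *Vcl*. They were chosen by symbol, matched through their Entrez Gene numbers, and are 10 of the 27179 genes counted in each of 21 libraries. All 10 passed the filter on low counts that left 16377 genes for testing. Each library held RNA of a podocyte fraction of male wild-type C57BL/6J mice, pulled out of enzyme-digested cortex by bead-bound antibodies against nephrin. The 6 young libraries came from untreated mice 4 months old. The 7 middle-aged saline and the 8 middle-aged MCC950 libraries came from mice 19.5 months old, after 6 weeks of intraperitoneal injections of saline or of 10 mg/kg MCC950, an inhibitor of the NLRP3 inflammasome. The young mice received no injections, so age and injection cannot be told apart in comparisons with them. The study took mice of the young age from a tissue archive, but gives another number of them than there are young libraries, so the origin of each young library is not certain.

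Podocytes hold on to the laminin of the basement membrane mainly through integrin α3β1, a pair of membrane proteins encoded by *Itga3* and *Itgb1*. The tetraspanin CD151 binds this pair and steadies its grip, and α-dystroglycan is a laminin receptor of another kind. Inside the cell, talin switches integrins on, the kinase-like adaptor ILK binds parvin and the tail of the β1 subunit, and vinculin ties talin to actin. Integrin αvβ5, by contrast, binds ligands such as vitronectin that carry the RGD motif. Loss of *Itga3*, *Itgb1*, *Ilk*, *Tln1* or *Cd151* is known to damage the glomerular filter in mice.

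Total counts ranged from 27375870 to 36827823 in young, from 45772937 to 84876399 in saline and from 35440472 to 58247271 in MCC950 libraries, so that every saline library was deeper than every young one. Mitochondrial genes took 51.5% to 80.4% of the counts in young, 63.0% to 79.2% in saline and 49.9% to 63.7% in MCC950 libraries. The podocyte label was checked against 22 markers. *Nphs1*, *Wt1*, *Synpo* and *Podxl* were counted in every library, but the median of *Nphs1*, which encodes nephrin, was 41.4 CPM (read counts relative to library size, scaled by the trimmed mean of M values, TMM) in young, 6.48 CPM in saline and 11.7 CPM in MCC950 libraries. The 22 markers summed to between 902 and 1938 CPM in young, 368 and 651 CPM in saline and 477 and 780 CPM in MCC950 libraries. Of these 22 markers, 1 was at 0 in at least 1 library. The 15 proximal tubule markers summed to between 2282 and 10616 CPM and none was at 0, so the fractions held RNA of other kidney cells. In such a fraction, fewer podocytes and less RNA per podocyte cannot be told apart.

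The starts of the genes are shown for *Itga3*, *Vcl* and *Dag1*, which separated middle-aged saline from young libraries, and for *Tln1*, which did not. Each promoter runs from 250 bases before to 50 bases after a transcription start in RefSeq (GRCm38.p6), reads 5′ to 3′ on the strand of the gene, and has capitals where GGGCGG (the core of an Sp1 site), GGAATG (the core of a TEAD site) or a CArG box (the site of serum response factor) was found on either strand. *Itga3* lies on the minus strand. *Itga3* and *Dag1* each have another annotated start, not shown. The other *Dag1* window overlaps the one shown, and its 4 matches of GGGCGG include the 3 shown. The *Itga3* promoter is chr11:95076665-95076964, that of *Vcl* on the plus strand chr14:20929148-20929447, that of *Dag1* on the minus strand chr9:108263909-108264208, and that of *Tln1* on the minus strand chr4:43562534-43562833.
Itga3: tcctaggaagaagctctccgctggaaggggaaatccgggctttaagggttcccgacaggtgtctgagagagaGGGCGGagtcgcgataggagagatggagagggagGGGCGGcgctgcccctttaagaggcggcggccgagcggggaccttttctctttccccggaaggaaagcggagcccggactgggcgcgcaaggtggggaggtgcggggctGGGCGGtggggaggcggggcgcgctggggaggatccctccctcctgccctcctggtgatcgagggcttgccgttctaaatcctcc
Vcl: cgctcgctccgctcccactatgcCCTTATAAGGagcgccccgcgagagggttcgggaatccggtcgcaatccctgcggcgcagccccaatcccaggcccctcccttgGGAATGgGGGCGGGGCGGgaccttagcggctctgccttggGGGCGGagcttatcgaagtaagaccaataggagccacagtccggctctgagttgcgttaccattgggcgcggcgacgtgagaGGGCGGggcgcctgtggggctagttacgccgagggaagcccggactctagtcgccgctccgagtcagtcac
Dag1: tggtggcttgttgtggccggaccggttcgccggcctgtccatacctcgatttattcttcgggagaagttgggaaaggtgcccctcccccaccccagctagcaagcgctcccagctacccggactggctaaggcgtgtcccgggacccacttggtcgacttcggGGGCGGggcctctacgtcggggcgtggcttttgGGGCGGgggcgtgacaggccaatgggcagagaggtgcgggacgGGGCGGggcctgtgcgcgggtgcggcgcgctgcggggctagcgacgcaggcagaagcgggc
Tln1: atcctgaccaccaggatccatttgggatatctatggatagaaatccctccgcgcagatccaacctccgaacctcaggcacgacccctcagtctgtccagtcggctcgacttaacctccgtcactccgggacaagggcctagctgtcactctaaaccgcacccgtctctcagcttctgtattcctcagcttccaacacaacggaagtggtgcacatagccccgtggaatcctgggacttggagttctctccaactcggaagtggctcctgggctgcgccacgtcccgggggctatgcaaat

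GGGCGG was found 3 times in the *Itga3* window, 4 times in that of *Vcl*, where 2 of the matches share a base, and 3 times in that of *Dag1*. It was found in 10 of the 13 windows of the 9 genes with an entry, and in 35.7% of 32851 windows of the same length over all genes. The 2 *Dag1* windows share bases, and by gene the motif was found in 8 of the 9. The *Vcl* window alone among the 13 held a CArG box, at bases 24 to 33, and 1.63% of all windows held one. GGAATG was found in the windows of *Vcl* and *Itgb1*, and in 14.7% of all windows. In the *Tln1* window none of the 3 motifs was found. These matches describe the letters only.

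The first comparison asked how the anchoring genes of middle-aged saline mice differed from those of young mice. *Itga3*, *Vcl*, *Dag1*, *Parva* and *Cd151* fell, and the other 5 genes did not pass the test. Thus 5 of 10 genes were lower at an adjusted *P* under 0.05 (edgeR quasi-likelihood test, Benjamini-Hochberg over all genes tested) and 0 were higher, beside 12.4% of all genes lower and 12.2% higher. At an unadjusted *P* under 0.05, 6 of the 10 genes passed, beside 36.9% of all genes. The median log2 fold change was -0.23 over the 10 genes and 0.021 over all genes. In 4 genes every saline library was below every young library, which was so for 4.86% of all genes.

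*Itga3* encodes the α subunit of the laminin receptor (chr11:95044475-95076844). Its level was 38.7 CPM in the lowest, 55.1 CPM in the median and 68.99 CPM in the highest young library. In saline libraries the lowest was 19.3 CPM, the median 25.3 CPM and the highest 31.3 CPM. The groups did not overlap, and the log2 fold change of -1.13 ± 0.17 (SE) was the largest of the 10 genes (adjusted *P* = 7.67e-05, edgeR). Its partner *Itgb1*, the β subunit shared by many integrins (chr8:128685654-128733579), was at 133, 168 and 205 CPM in the lowest, median and highest young libraries and at 120, 144 and 164 CPM in the saline ones. These ranges overlapped, and the log2 fold change was -0.17 ± 0.092 (adjusted *P* = 0.188, edgeR).

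*Vcl* encodes vinculin (chr14:20929383-21033676). It was at 34.5, 42.1 and 64.1 CPM in the lowest, median and highest young libraries. In the saline libraries the corresponding levels were 21.1, 24.3 and 27.8 CPM. The groups did not overlap, with a log2 fold change of -0.92 ± 0.13 (adjusted *P* = 7.4e-05, edgeR). *Dag1*, which encodes dystroglycan (chr9:108204861-108263977), was at 96.8, 122 and 155 CPM in young and at 62.6, 73.5 and 94.8 CPM in saline libraries. The gap between the groups was narrow, as the highest saline library lay just below the lowest young one, and the log2 fold change was -0.71 ± 0.13 (adjusted *P* = 0.000732, edgeR).

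*Parva* encodes α-parvin, which links ILK to actin (chr7:112427706-112591688). It was at 50.6, 63.5 and 71.1 CPM in the lowest, median and highest young libraries and at 35.1, 40.3 and 43.5 CPM in the saline ones. All saline libraries were below all young ones, and the log2 fold change was -0.62 ± 0.11 (adjusted *P* = 0.000403, edgeR). *Cd151*, the tetraspanin partner of α3β1 (chr7:141467362-141471481), was at 45.0, 52.0 and 56.5 CPM in young and at 38.2, 41.2 and 48.5 CPM in saline libraries. Here 6 of 7 saline libraries were below the lowest young one, and the log2 fold change was -0.29 ± 0.082 (adjusted *P* = 0.014, edgeR).

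The RGD-binding pair did not pass the test. *Itgav* (chr2:83722303-83806917) had a median of 52.7 CPM in young and 45.1 CPM in saline libraries, with a log2 fold change of -0.17 ± 0.076 (adjusted *P* = 0.103, edgeR). *Itgb5* (chr16:33829665-33949338) had medians of 91.4 and 84.3 CPM and a log2 fold change of -0.12 ± 0.12 (adjusted *P* = 0.49, edgeR). The same held for the kinase-like adaptor and for talin. *Ilk* (chr7:105736590-105742925) had medians of 24.8 and 24.7 CPM, and *Tln1* (chr4:43531513-43562583) of 130 and 148 CPM. Their log2 fold changes were 0.056 ± 0.07 and 0.13 ± 0.12, with adjusted *P* of 0.61 and 0.435 (edgeR). Of the exon bases of *Ilk* in GENCODE, 76.7% also belong to exons of *Taf10* on the other strand, and 25.5% of those of *Vcl* to *Ap3m1*. The counts of *Ilk* and *Vcl* thus depend on how shared reads were assigned.

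**Figure D1:**
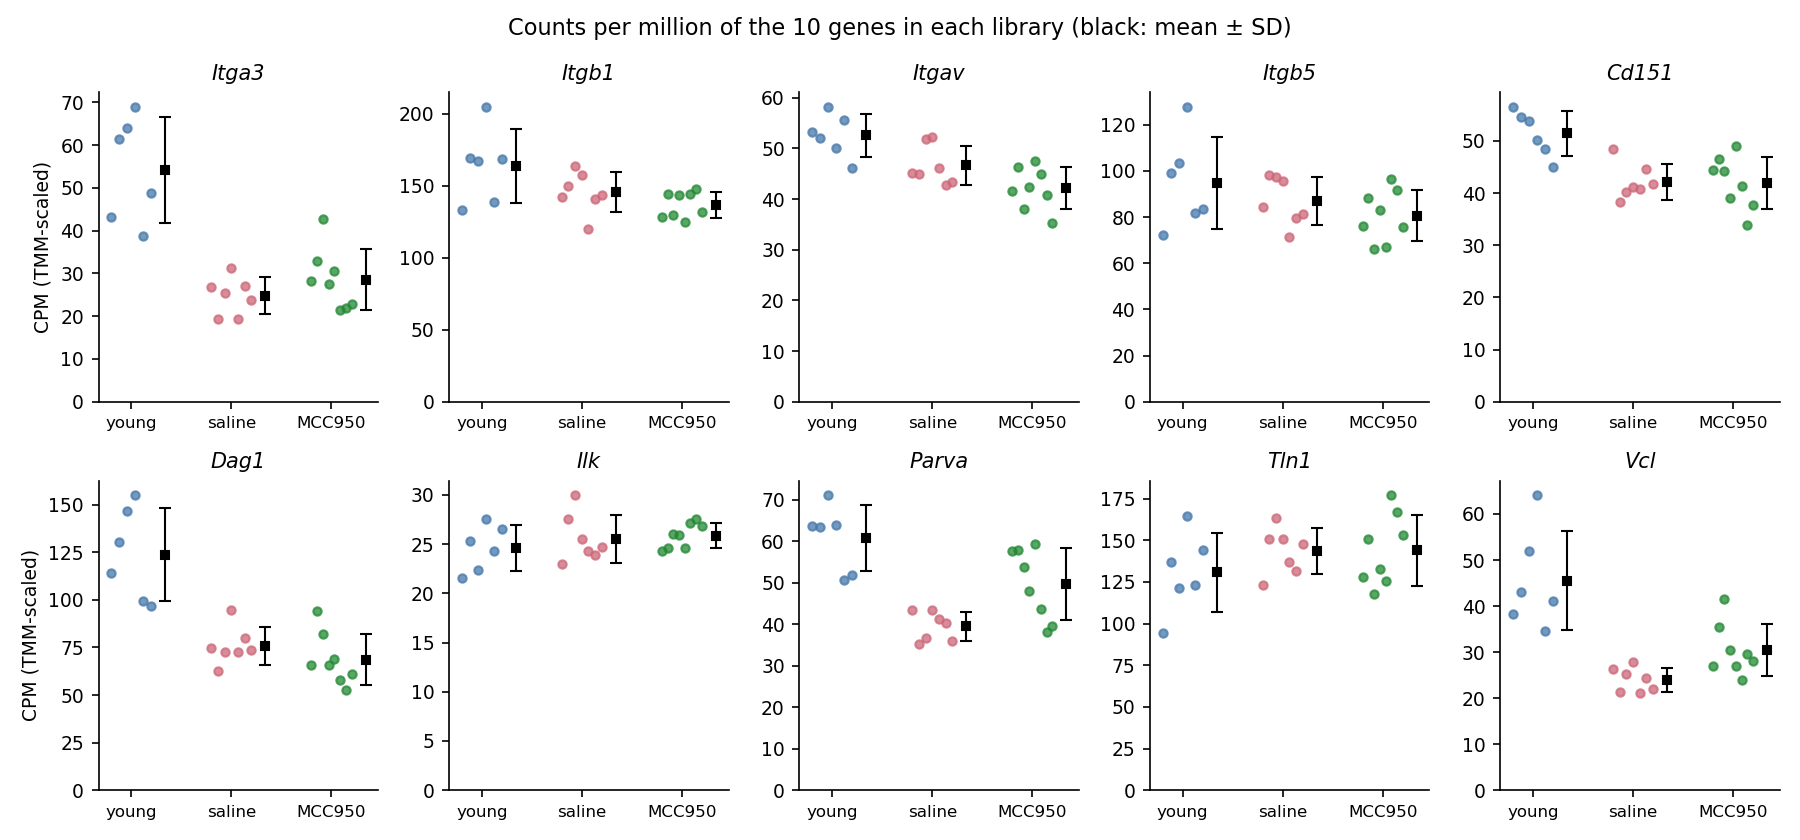
Each panel plots 1 gene, with CPM (TMM-scaled, axis from 0) on the vertical axis and the 6 young, 7 saline and 8 MCC950 libraries as points, and the black square with bars is the mean ± SD. *Itga3*, *Dag1*, *Parva* and *Vcl* show saline points wholly below the young ones, while *Ilk* stays between 21.5 and 30.0 CPM in all libraries.

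Markers of podocytes and of other cells differed between the same libraries. Of the 22 podocyte markers 21 were lower and 0 higher in saline mice, and the mean log2 CPM of the list differed by -1.78 (two-sided exact test over all permutations of the libraries, *P* = 0.00117, which is the lower limit for 6 against 7, adjusted *P* = 0.00488 over 33 tests). Markers of endothelium (10 of 11 lower), of mesangium and smooth muscle (7 of 10 lower) and of the collecting duct (5 of 8 lower) fell too, and markers of macrophages (4 of 12 higher), T cells (4 of 9 higher) and B and plasma cells (5 of 9 higher) rose. The macrophage and myeloid markers summed to between 499 and 2513 CPM in young and between 1800 and 4314 CPM in saline libraries. Their part in the fold changes was not tested beyond fits with a score as a covariate. With the podocyte score, which itself separated the groups, 0 of the 10 genes were lower (*Itga3*, log2 fold change -0.10, adjusted *P* = 0.86, edgeR), but in that fit 7 of all genes were higher and 0 lower. With the score of the macrophage and myeloid markers *Itga3*, *Vcl*, *Dag1* and *Parva* remained lower, *Cd151* did not pass (log2 fold change -0.14), and *Itgb1* and *Itgb5* passed (-0.33 and -0.36). *Itgb1* passed with the proximal tubule score too (log2 fold change -0.21, adjusted *P* = 0.0158, edgeR).

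Each gene was next set against the podocyte markers of its own library, by subtracting the mean log2 CPM of the 22 markers from its log2 CPM, so that the scaling of the library cancels. All 10 differences were higher in saline than in young libraries, from 0.66 for *Itga3* to 1.93 for *Tln1*. The marker mean itself differed by -1.78, and at an unadjusted exact *P* under 0.05 the same difference was higher for 97.7% of all genes, so the count of 10 is not particular to these genes. For *Itga3* the mean was 1.30 ± 0.22 (SD, n = 6) in young and 1.96 ± 0.26 (SD, n = 7) in saline libraries (exact permutation test, *P* = 0.00233, adjusted *P* = 0.00368 over 30 tests). *Itga3* thus stayed nearest to the markers among the 10. *Vcl* was higher by 0.88 against the markers, *Dag1* by 1.09 and *Parva* by 1.16, each with an adjusted *P* of 0.00266 by the same exact test. The remaining 6 genes were higher by between 1.49 and 1.93 with the same adjusted *P* (exact permutation test).

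**Figure D2:**
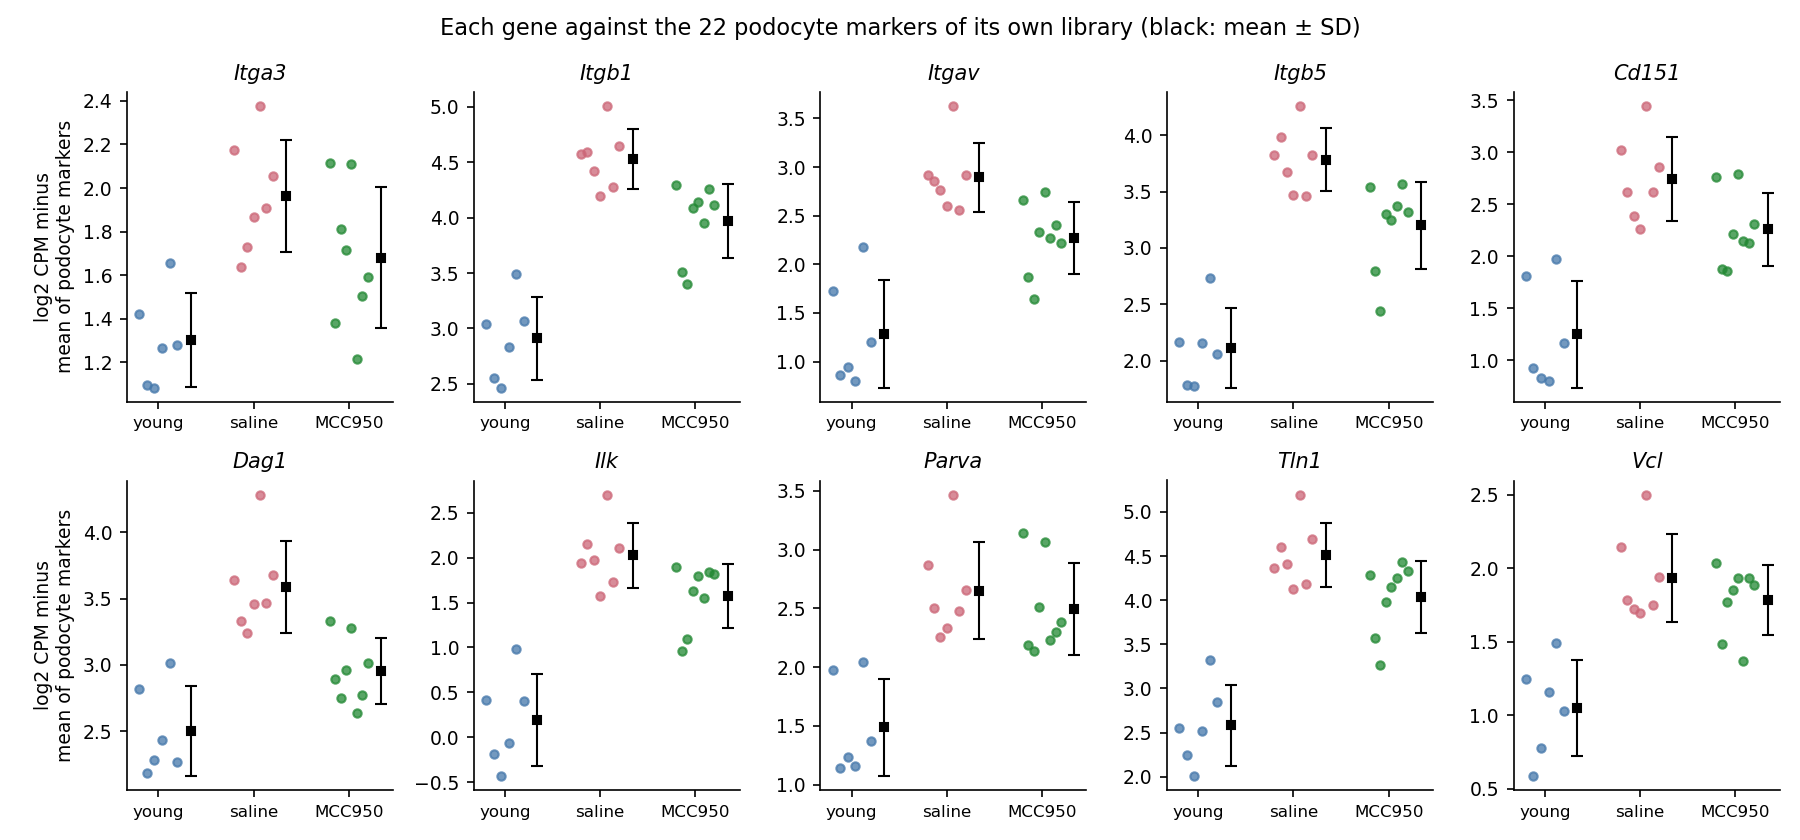
The vertical axis is the log2 CPM of a gene minus the mean log2 CPM of 22 podocyte markers in the same library, for 6 young, 7 saline and 8 MCC950 libraries, with the mean ± SD in black. The saline mean lies above the young mean in each of the 10 panels, by 0.66 for *Itga3* and by 1.93 for *Tln1*, and vertical axes do not start at 0.

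Partner genes were then compared within a library, as the ratio of their read counts, which is not corrected for gene length. There were 0.331 reads of *Itga3* per read of *Itgb1* in the median young library, and the young libraries ranged from 0.28 to 0.383. In saline libraries the median ratio was 0.166 and the range 0.129 to 0.199. The ranges did not overlap, and the log2 ratio fell by 0.96 (exact two-sided permutation test, *P* = 0.00117, adjusted *P* = 0.00437 over 15 tests). The ratio of *Itgav* to *Itgb5*, by contrast, had medians of 0.557 in young and 0.535 in saline libraries. Its log2 difference was -0.065 with SDs of 0.32 and 0.14 (exact permutation test, *P* = 0.625).

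*Itga3* also fell relative to *Itgav*, from a median of 1.08 reads per read in young to 0.55 in saline libraries (log2 difference -0.94, adjusted *P* = 0.00437, exact permutation test). Relative to *Cd151* the medians were 1.10 and 0.572 (log2 difference -0.83, adjusted *P* = 0.00437, exact permutation test). The ratio of *Ilk* to *Parva* moved the other way, from a median of 0.415 to 0.594 (log2 difference 0.67, adjusted *P* = 0.00437, exact permutation test). The integrin α3 transcript was thus lower against each of its 3 comparators. The ratios that passed all stood at the lower limit of the exact permutation test for 6 against 7 libraries (*P* = 0.00117). Their equal adjusted *P* therefore do not rank them. These ratios follow from the fold changes of the paired genes, in fractions whose cell markers also differed. The part of the mix of cells in them was not tested.

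**Figure D3:**
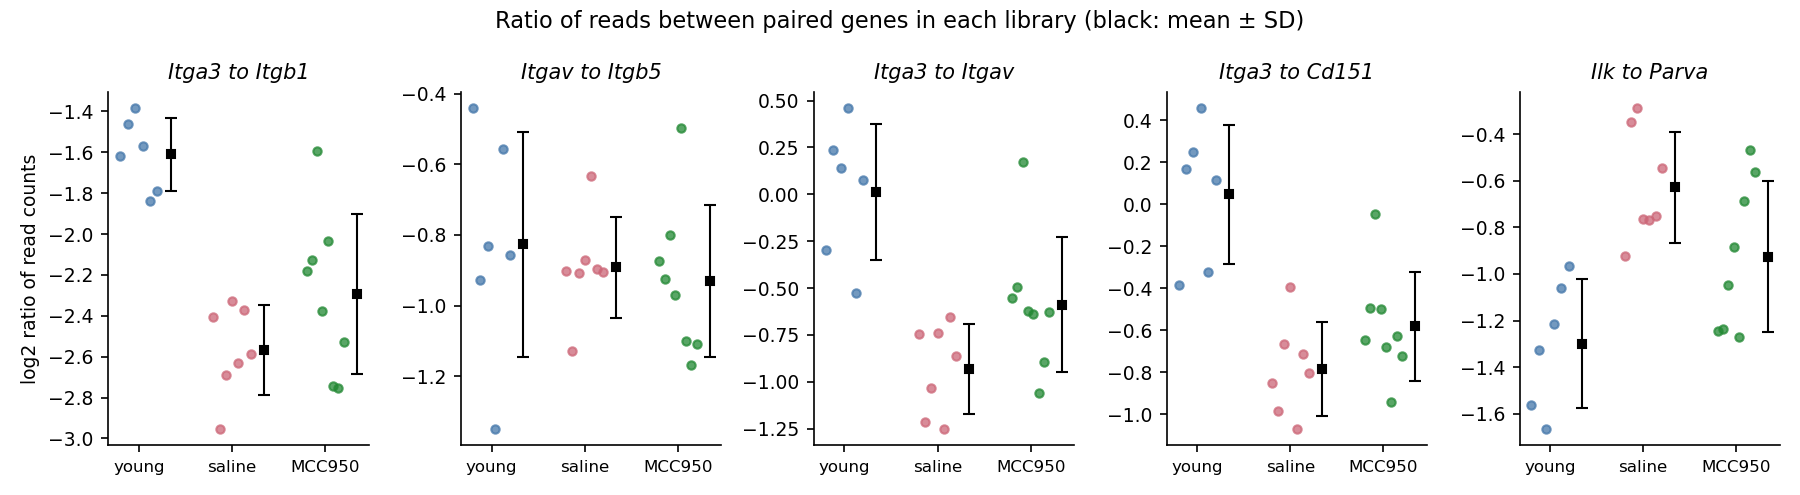
Each panel plots the log2 ratio of the read counts of 2 genes in 6 young, 7 saline and 8 MCC950 libraries, with the mean ± SD in black. Saline libraries lie below young ones for *Itga3* to *Itgb1*, with a mean difference of -0.96, and above them for *Ilk* to *Parva* by 0.67, while *Itgav* to *Itgb5* overlaps in all 3 groups.

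The second comparison asked how middle-aged MCC950 mice differed from middle-aged saline mice. Only *Parva* passed the test, and it was higher, so that 1 of 10 genes was higher and 0 were lower, beside 11.9% of all genes higher and 4.86% lower. The median log2 fold change of the 10 genes was -0.00037, and that of all genes 0.0028. The groups overlapped for each of the 10 genes, and 1.15% of all genes were higher and 0.586% lower without overlap. At an unadjusted *P* under 0.05, 2 of the 10 genes passed, beside 31.6% of all genes.

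*Parva* was at 38.1, 50.9 and 59.4 CPM in the lowest, median and highest MCC950 libraries. Of the 8 MCC950 libraries, 6 were above the highest saline one at 43.5 CPM. The log2 fold change was 0.33 ± 0.1 (adjusted *P* = 0.0312, edgeR). Leaving out any of 7 single libraries (saline replicates 2, 3 and 7 or MCC950 replicates 1, 2, 3 and 5) took the adjusted *P* to between 0.0536 and 0.0661, with log2 fold changes between 0.29 and 0.32. With the podocyte score as a covariate the log2 fold change was 0.26 (adjusted *P* = 0.0981, edgeR), and with the proximal tubule score 0.16 (adjusted *P* = 0.478).

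*Vcl* was at 24.0, 28.8 and 41.6 CPM in MCC950 libraries, and 5 of 8 were above the highest saline library. Its log2 fold change was 0.34 ± 0.13 (adjusted *P* = 0.0667, edgeR). *Itga3* was at 21.5, 28.0 and 42.8 CPM, with 2 of 8 libraries above the highest saline one, and a log2 fold change of 0.21 ± 0.15 (adjusted *P* = 0.378, edgeR). For neither gene did the difference pass the test. *Dag1* (-0.15), *Itgav* (-0.15), *Itgb5* (-0.11) and *Itgb1* (-0.088) had negative log2 fold changes, and those of *Cd151*, *Ilk* and *Tln1* were between -0.0061 and 0.018, with adjusted *P* of 0.16 or more (edgeR).

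The share of mitochondrial counts was 49.9% to 63.7% in MCC950 and 63.0% to 79.2% in saline libraries, and *Parva* passed without the mitochondrial genes too (log2 fold change 0.33, adjusted *P* = 0.0316, edgeR). Among cell markers those of the proximal tubule differed most. Their mean log2 CPM was 0.91 higher (exact two-sided permutation test, adjusted *P* = 0.00684 over 33 tests), with 9 of 15 markers higher and 0 lower. The podocyte markers were 0.47 higher in mean log2 CPM (exact permutation test, adjusted *P* = 0.0526), with 7 of 22 higher, *Nphs1* and *Wt1* among them, and 1 lower (*Cd2ap*). Against the podocyte markers of the same library, 7 of the 10 genes were lower in MCC950 than in saline libraries at an adjusted *P* under 0.05. At an unadjusted exact *P* under 0.05 these were 7 too, beside 46.7% of all genes, and a gene with a log2 fold change near 0, such as *Tln1*, comes out lower because the marker mean was higher. *Dag1* differed by -0.63 (adjusted *P* = 0.00266, exact permutation test) and *Itgb1* by -0.56 (adjusted *P* = 0.00291, exact permutation test). *Itga3* differed by -0.28 (adjusted *P* = 0.0932), *Parva* by -0.16 (adjusted *P* = 0.468) and *Vcl* by -0.15 (adjusted *P* = 0.316), all by the exact permutation test. None of the 5 ratios between partner genes passed, the nearest being *Itga3* to *Itgav* with a log2 difference of 0.34 (*P* = 0.041, adjusted *P* = 0.071, exact permutation test).

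MCC950 libraries were set against young libraries as the third side of the design, which shares its samples with both other comparisons. Here 7 of 10 genes were lower and 0 higher, beside 16.5% of all genes lower and 21.8% higher. At an unadjusted *P* under 0.05, 7 of 10 passed, beside 47.7% of all genes. *Itga3* (log2 fold change -0.92 ± 0.16, adjusted *P* = 0.000169, edgeR), *Dag1* (-0.85 ± 0.13) and *Vcl* (-0.58 ± 0.13) had the largest differences. *Itgav* (-0.32), *Cd151* (-0.29), *Parva* (-0.29) and *Itgb1* (-0.26) were lower too, with adjusted *P* between 0.00215 and 0.0373 (edgeR). *Dag1* was the only one of the 10 whose groups did not overlap, at 52.8 to 94.1 CPM against 96.8 to 155 CPM, and 4.66% of all genes were lower without overlap. *Itgb5* (-0.23, adjusted *P* = 0.123), *Tln1* (0.14) and *Ilk* (0.073) did not pass (edgeR). *Itgb5* did pass with the macrophage score as covariate (-0.40, adjusted *P* = 0.00217) and without young replicate 1 (adjusted *P* = 0.0455, both edgeR). *Parva* did not pass with no filter on low counts (adjusted *P* = 0.0616), with the macrophage score as covariate (0.161), or without young replicate 1 or MCC950 replicate 4, 6, 7 or 8 (0.0582 to 0.071). *Itgb1* did not pass with no filter (0.0502), after thinning to equal depth (0.0588), with the proximal tubule score (0.492) or without young replicate 4 (0.0766, all edgeR).

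In the same libraries 21 of 22 podocyte markers were lower in MCC950 than in young mice, with a difference of -1.31 in mean log2 CPM. Markers of endothelium (11 of 11), of mesangium and smooth muscle (9 of 10) and of the collecting duct (8 of 8) were lower. Markers of the proximal tubule (9 of 15), of B and plasma cells (4 of 9) and of macrophages (3 of 12) were higher. In mean log2 CPM the B and plasma cell markers were 1.61 higher (exact permutation test, adjusted *P* = 0.00659). The proximal tubule markers were 0.72 higher by the same test (adjusted *P* = 0.0502). The part of the cell markers in the differences was not tested beyond the fits with a podocyte, proximal tubule or macrophage score as covariate. With the podocyte score 0 of the 10 genes were lower, but in that fit 41 of all 16377 genes were higher and 96 lower. Against the podocyte markers all 10 genes were higher, from 0.38 for *Itga3* to 1.45 for *Tln1*, as were 91.3% of all genes at an unadjusted exact *P* under 0.05.

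**Figure D4:**
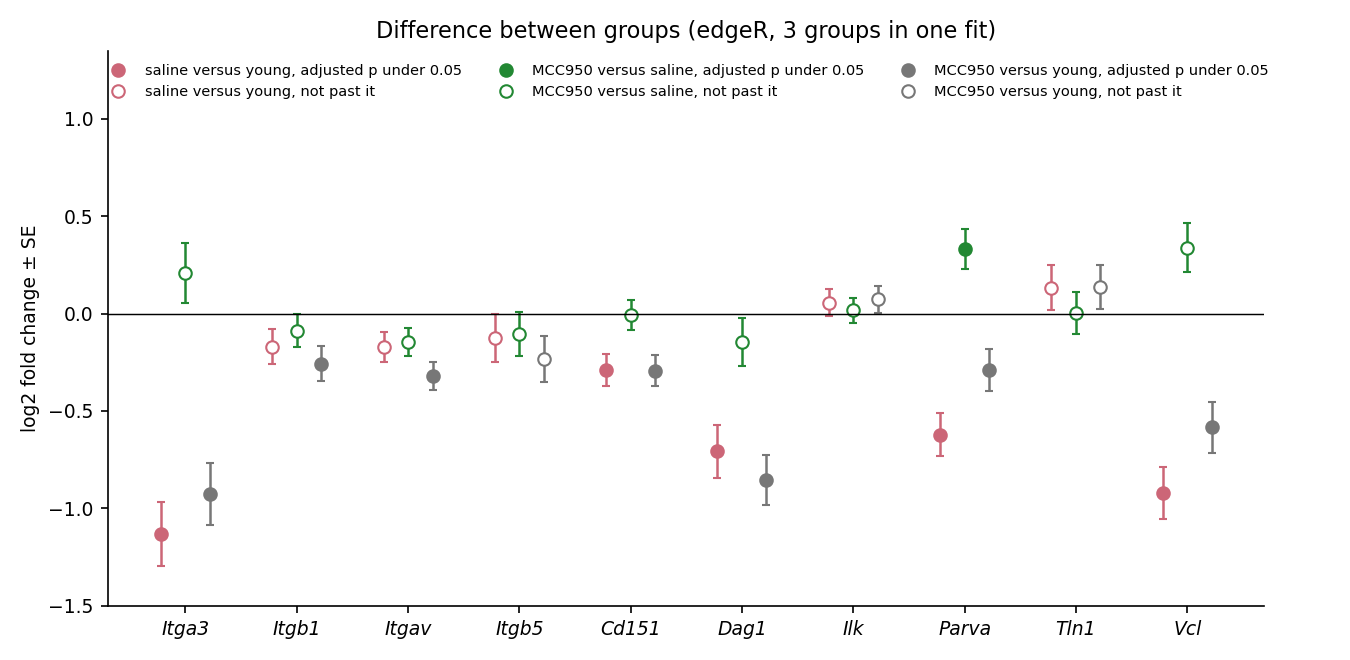
The vertical axis is the edgeR log2 fold change ± SE of each gene in the comparisons of saline with young, MCC950 with saline and MCC950 with young, from 1 fit of 6, 7 and 8 libraries, and filled points passed an adjusted *P* under 0.05. *Itga3* is lowest at -1.13 in saline and -0.92 in MCC950 libraries against young, and *Parva* is the only filled point above 0, at 0.33.

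Levels can be compared between genes only per length, as CPM per kilobase of annotated exon. The lengths were those of all GENCODE exons of a gene, merged over its transcripts. The authors counted by Entrez Gene number, so the exons counted may differ from these. *Itgb1* was the most abundant of the 10 in all 3 groups, at 40.1 ± 6.34 (SD, n = 6) CPM per kilobase in young and 35.6 ± 3.43 (SD, n = 7) in saline libraries. *Itgb5* came next in each group, at 26.7 ± 5.61 in young libraries. *Dag1* (19.5 ± 3.84) and *Cd151* (18.8 ± 1.58) in young libraries were within their spread of one another, and in saline libraries *Dag1* (11.9 ± 1.55) stood below *Cd151* (15.4 ± 1.24). *Itga3* had 9.49 ± 2.15 CPM per kilobase in young, level with *Ilk* at 8.96 ± 0.851, and 4.34 ± 0.762 in saline libraries, level with *Itgav* at 4.34 ± 0.363. *Vcl* was lowest in saline libraries at 2.93 ± 0.318. The places of *Ilk* and *Vcl* in this order are not certain, as the lengths include the exon bases shared with *Taf10* (76.7%) and *Ap3m1* (25.5%). How reads on those bases were assigned is not known.

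Over the 21 libraries, the genes most like each of the 10 were found by the Pearson correlation of log2 CPM among 12252 genes. These values describe likeness over libraries that share group differences and depth. *Itga3* was most like *Myo1d* (r = 0.98), an unconventional myosin, and *Npr1* (r = 0.97), a natriuretic peptide receptor. *Dag1* was most like *Tjp1* (r = 0.98), which encodes the junction protein ZO-1, and *Plagl1* (r = 0.98). *Vcl* was most like *Col4a1* (r = 0.96), a basement membrane collagen, and *Srgap1* (r = 0.95). For *Parva*, *Tead1*, a transcription factor, was among the most alike (r = 0.94). *Tln1* was most like *Fyb* (r = 0.94), an adaptor of leukocytes, and *Ssh2* (r = 0.93), a cofilin phosphatase. *Itgb1* was most like *Map4* (r = 0.95) and *Gnaq* (r = 0.93), and *Itgb5* like *Lrrk1* (r = 0.91) and *Gnaq* (r = 0.91). *Cd151* was most like *Fam171a1* (r = 0.93) and *Enah* (r = 0.92), an actin regulator of focal adhesions. *Itgav* was most like *Pja2* (r = 0.89) and *Srgap3* (r = 0.88), and *Ilk* like *Rap1gds1* (r = 0.86) and *Tcof1* (r = 0.83). Among the 10 genes themselves, *Itga3* was nearest to *Vcl* (r = 0.94) and to *Dag1* (r = 0.91), and *Cd151* and *Ilk* ran most opposite (r = -0.64).

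The rest of the integrin family moved in opposite directions in the 2 lists examined. For the counts in these and the further lists, 12.4% of all genes were lower and 12.2% higher in saline than in young mice. Between MCC950 and saline mice 11.9% of all genes were higher and 4.86% lower. Of 13 other integrin subunits of epithelium and mesenchyme 7 were lower and 0 higher in saline than in young mice, with a median log2 fold change of -0.54. *Itga8*, a mesangial integrin subunit, fell by 1.53 on the log2 scale, *Itga7* by 0.94 and *Itga1*, a collagen receptor, by 0.63. Of 8 leukocyte integrin subunits 6 were higher and 0 lower, with a median of 0.91. *Itgam*, which encodes CD11b, the αM subunit of a macrophage integrin, rose by 1.28, *Itgax* by 0.92 and *Itgb2*, the β subunit shared by these, by 0.90. With MCC950 only *Itgb4*, a hemidesmosome integrin, passed among the former (log2 fold change -0.65, adjusted *P* = 0.0133, edgeR), and 0 of the latter, where *Itgad* (-0.66), *Itgax* (-0.52) and *Itga4* (-0.33) had the smallest adjusted *P*, of 0.131 to 0.264.

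Among other focal adhesion proteins, 16 of 39 genes were lower and 2 higher in saline than in young mice, with a median log2 fold change of -0.24. *Tgfb1i1* (Hic-5, a paxillin relative) fell by 1.12 on the log2 scale and *Fermt2* (kindlin-2, an integrin activator) by 0.66. With MCC950 3 of 39 were higher and 1 lower, beside 11.9% of all genes higher and 4.86% lower. *Actn4*, the podocyte α-actinin, rose by 0.28 and *Ilkap* by 0.24, while *Nedd9* fell by 0.27 on the log2 scale (adjusted *P* of 0.0162, 0.0304 and 0.0164, edgeR).

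Of 22 other tetraspanins 6 were lower and 2 higher in saline than in young mice. *Tspan2* fell by 1.36, *Tspan18* by 1.04 and *Tspan7* by 0.85 on the log2 scale. With MCC950 4 were lower and 3 higher, among them *Tspan8* (-0.74), *Cd82* (-0.32) and *Tspan33* (0.46). Of 22 genes of the dystrophin-glycoprotein complex and of dystroglycan glycosylation 7 were lower and 0 higher in saline mice, and *Dmd* (dystrophin) fell by 0.97, *Sntb1* by 0.72 and *Utrn* (utrophin) by 0.52 on the log2 scale. With MCC950 4 were higher and 2 lower, *Pomt2* (0.35) being among the higher and *Utrn* (-0.41) among the lower.

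The matrix ligands of these receptors were mostly lower. Of 24 genes 15 were lower and 1 higher in saline than in young mice, with a median log2 fold change of -0.67. *Col4a3*, a collagen chain made by podocytes, fell by 1.12 on the log2 scale, *Col4a1* by 1.08 and *Col4a2* by 0.91 (adjusted *P* between 3.4e-05 and 4.29e-05, edgeR). With MCC950 0 were higher and 2 were lower, *Thbs1* (-0.43) among them, and *Lama4* (-0.55) did not pass (adjusted *P* = 0.0654, edgeR).

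**Figure D5:**
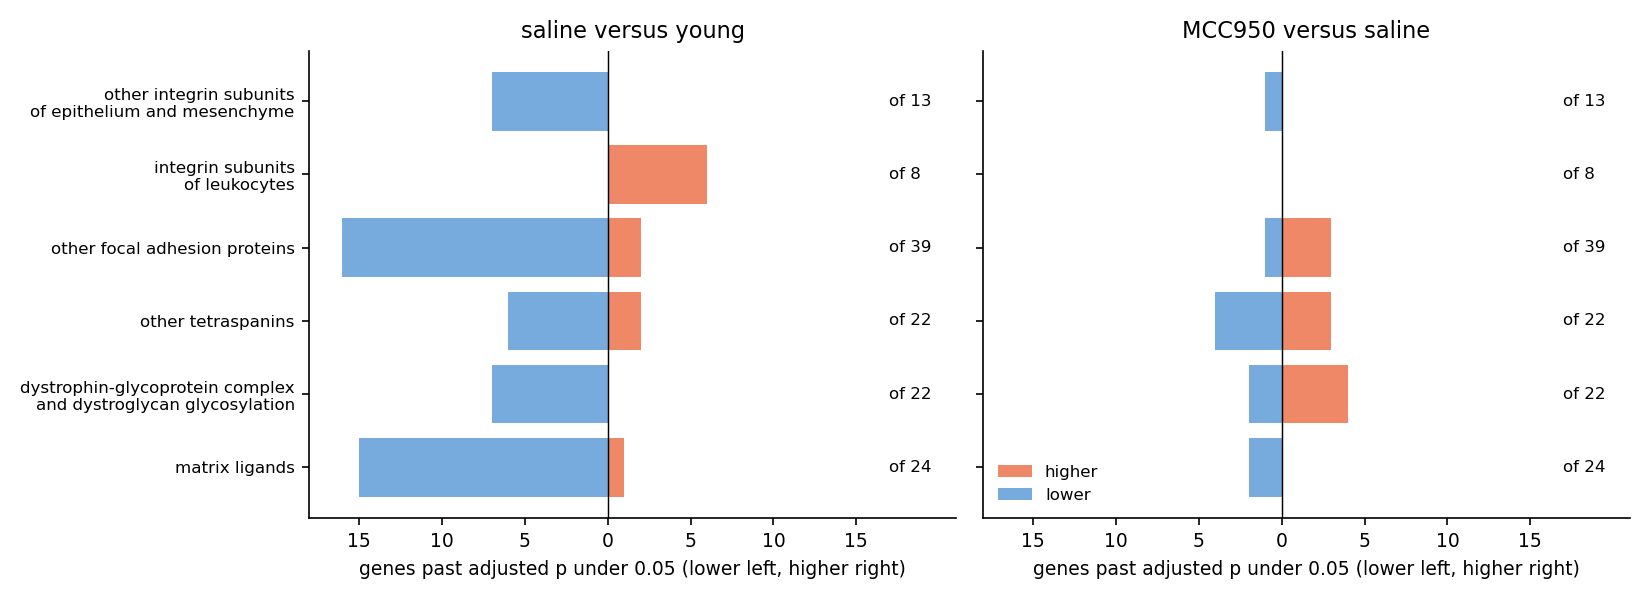
Bars give how many genes of each of 6 lists passed an adjusted *P* under 0.05, to the left for lower and to the right for higher, with the number tested beside them. In the comparison of saline with young, 16 of 39 other focal adhesion genes and 15 of 24 matrix ligands were lower, and 6 of 8 leukocyte integrins were higher. Over all genes 12.4% were lower and 12.2% higher.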

How the data were processed

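mRNA of the podocyte fraction was sequenced by the authors from TruSeq libraries. The reads were trimmed with Trim Galore, aligned to mm10 with Bowtie2, which does not split reads over introns, and counted per gene with featureCounts. The strand setting and the treatment of shared reads are not given in the sources used here. The deposited tables hold raw read counts for 27179 genes by Entrez Gene number, of which 25275 were named through RefSeq. A normalized table was not used.

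The counts went into edgeR 4.0.16 under R 4.3.3 (TMM, filterByExpr by group, quasi-likelihood F test, the 3 groups in one fit), and log2 CPM had a prior count of 2. SE was taken as the absolute log2 fold change over the root of F. The paper's tool DESeq2 1.42.0 was an alternative. For single values, two-sided exact permutation tests were used (all assignments, in numpy 2.4.6 under Python 3.11.15, checked against scipy 1.17.1). *P* values were adjusted by Benjamini-Hochberg. Samples were grouped by their labels. The labels only number the replicates of a group, while the paper states that the podocytes sequenced came from individual mice. Libraries were therefore taken as separate mice, and *P* values measure the spread between them. Of the same-numbered pairs of libraries, 2 of 6 (saline and young), 3 of 7 (MCC950 and saline) and 3 of 6 (MCC950 and young) had deviations correlated above 0.1 (range -0.14 to 0.40), so the numbers were not used as pairs. No 2 libraries were identical. The lowest library held 5804891 counts outside the mitochondrial genes, and the lowest count of any of the 10 genes was 432.

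Named were the 10 genes, in each list up to 3 genes of smallest adjusted *P* in the first 2 comparisons, and for each of the 10 the 2 most correlated genes of average log2 CPM of at least 1. Some genes that this rule names are not reported here. The genes and lists were chosen with earlier results of these data known. The fits were tested on simulated data. Alternatives were DESeq2, 2 other normalizations, no filter, 2 groups per fit, the replicate block, mitochondrial genes left out, thinning to equal depth, 3 marker scores as covariates, a core list of 5 podocyte markers, and each library left out.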

Additional observations from a re-analysis of the deposited data

Results flagged for a closer look

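The log2 ratio of *Itga3* to *Itgav* reads in MCC950 replicate 3 was 0.17, while the other 7 MCC950 libraries lay between -1.06 and -0.49. Its gap to the nearest library was 0.54 of the range of the group, above Dixon's critical value for 8 libraries. It was the only flag among 45 groups of values tested, and chance flags about 1 in 20.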

How the results depend on the processing

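Among the 10 genes, the count lower in saline than in young mice stayed at 5 or 6 when any 1 library was left out, and became 0 with the podocyte score as covariate. In that covariate fit 0 of all genes were lower too. The count lower in MCC950 than in young mice was 6 or 7 with any 1 library left out. It was 5 with no filter on low counts and 0 with the podocyte score, where 96 of all 16377 genes were lower. With the proximal tubule score as covariate 2 genes, *Tln1* and *Ilk*, were higher, beside 3406 of all 16377 genes. Between MCC950 and saline mice the count higher was 1 as reported, 0 with upper-quartile normalization, the podocyte score or the proximal tubule score, 2 with only the 2 groups in the fit, and 0 to 2 with 1 library left out. Of all genes 1957 were higher as reported, 1283 with upper-quartile normalization, 2498 with the podocyte score and 379 with the proximal tubule score. With the podocyte score 2 genes, *Dag1* and *Itgb1*, were lower between MCC950 and saline mice, beside 1186 of all 16377 genes. The cause of these changes was not tested.

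With the replicate block 2 genes, *Parva* and *Vcl* (log2 fold change 0.34, adjusted *P* = 0.0306, edgeR), were higher in MCC950 than in saline mice, beside 2381 of all 16377 genes. *Parva* no longer passed between MCC950 and young mice (-0.21). The block changed no other call among the 10 genes, and turned *Cd151* to 0.0091 and *Tln1* to -0.016 between MCC950 and saline mice. As far as the labels tell, same-numbered libraries share only a number.

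Log2 fold changes that turned sign between MCC950 and saline mice were *Ilk* at -0.0014 (DESeq2), -0.0028 (RLE), -0.039 (upper quartile), -0.0037 (2 groups), -0.15 (thinned) and -0.016 (podocyte score), *Tln1* at -0.013 (DESeq2), -0.013 (RLE), -0.050 (upper quartile), -0.015 (2 groups) and -0.067 (podocyte score), *Itga3* at -0.063 (podocyte score), and *Itgb1* at 0.14 and *Itgb5* at 0.18 (proximal tubule score). Between saline and young mice they were *Itgb1* at 0.32, *Itgb5* at 0.45 and *Dag1* at 0.029 (podocyte score), and *Ilk* at -0.072 and *Tln1* at -0.13 (macrophage score). Between MCC950 and young mice they were *Ilk* at -0.0088 (thinned), *Itgb1* at 0.11, *Itgb5* at 0.20 and *Vcl* at 0.023 (podocyte score), *Itgb5* at 0.0072 (proximal tubule score), and *Ilk* at -0.016 and *Tln1* at -0.054 (macrophage score). With 1 library left out, *Cd151* ranged from -0.044 to 0.033, *Ilk* from -0.028 to 0.044 and *Tln1* from -0.046 to 0.043 between MCC950 and saline mice. The log2 ratio of *Itgav* to *Itgb5* ranged from -0.17 to 0.012 between saline and young mice and from -0.10 to 0.0045 between MCC950 and saline mice.

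Of 330 fold changes under 11 other settings 273 kept their sign and side of the threshold, and of 630 with 1 library left out 586 did. Against the podocyte markers 25 of 420 values lost their call with 1 library left out, among *Cd151*, *Ilk* and *Tln1* between MCC950 and saline mice and *Itga3* between MCC950 and young mice, and with the core list *Itga3* and *Vcl* passed too between MCC950 and saline mice. The ratio of *Itga3* to *Itgav* lost its call between MCC950 and young mice without young replicate 2 or 4, and passed between MCC950 and saline mice without saline replicate 6 or MCC950 replicate 6 or 7. The ratio of *Ilk* to *Parva* passed between MCC950 and saline mice without MCC950 replicate 7, and between MCC950 and young mice without young replicate 6.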
